A study of Mus musculus with 8 samples.

Results

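The translation initiation and elongation factors are the soluble proteins that bring ribosomes, messenger RNA and transfer RNA together and then move the ribosome along the message. They were taken here as every gene of the deposited tables whose symbol begins with Eif1 to Eif6 or with Eef1 or Eef2. Of 85 such names, 13 marked as pseudogenes (-ps) and 5 protein kinases that phosphorylate these factors (Eif2ak1 to Eif2ak4 and Eef2k) were left out, which gave 67 members among 55487 genes. The members were set by a name pattern, with no threshold on a measured value. That pattern was chosen with earlier results of these data known.

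The libraries were made from polyadenylated platelet RNA of male mice aged 13 weeks, 4 Dnmt3a+/- animals and 4 WT littermates, so that the platelet transcriptomes of the 2 genotypes could be compared. Dnmt3a encodes a DNA methyltransferase that sets new methylation marks, and Dnmt3a+/- animals are heterozygous for it. The sources used here give neither the construction of that allele nor the strain. Blood was drawn from the heart, platelets were spun out of platelet-rich plasma, and red cells and leukocytes were removed with beads against Ter119 and CD45. The labels number the libraries as biological replicates 1 to 4 of each genotype.

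Initiation starts when eIF2 carries initiator transfer RNA to the small ribosomal subunit, which then scans for a start codon with eIF1, eIF1A, eIF3 and eIF5 bound. The eIF4F complex, made of the cap-binding protein eIF4E, the scaffold eIF4G and the helicase eIF4A, recruits the message, and 4E-binding proteins block eIF4E when they are not phosphorylated. In elongation eEF1A delivers each aminoacyl transfer RNA, eEF1B recharges eEF1A with GTP, and eEF2 drives translocation. Platelets have no nucleus and receive their messenger RNA and ribosomes from megakaryocytes. They can still make protein, and control of existing messages by initiation factors is a known feature of activated platelets.

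Library totals ran from 15185218 to 22160394 estimated counts. The 8 platelet marker genes, among them Ppbp, Pf4 and Itga2b, held 3.40% to 4.16% of the counts. The 8 red cell markers were highest in WT replicate 1, at 2.03%, and ranged from 0.203% to 0.486% elsewhere. The 9 leukocyte markers together held at most 0.000957%, and Cd3e, which defines T cells, had no count in any library. The share of 8 hepatocyte markers, led by Alb, was for WT replicates 1 to 4 in turn 0.00124%, 0.0294%, 0.114% and 0.0998%. For Dnmt3a+/- replicates 1 to 4 it was 0.00772%, 5.04e-05%, 0.0114% and 9.93e-05%. All 8 of those hepatocyte genes had an unadjusted p under 0.05 with lower values in Dnmt3a+/- (edgeR). Dnmt3a itself measured 20.3 ± 1.70 CPM (counts scaled to a common library size with TMM factors; SD, n = 4) in WT and 16.3 ± 6.73 in Dnmt3a+/- (SD, n = 4), a log2 fold change of -0.31 (SE 0.25, edgeR adjusted p = 0.998). In Dnmt3a+/- replicates 1 to 4 it measured 9.96, 11.5, 24.2 and 19.5 CPM, so replicate 3 lay above and replicate 4 within the WT range of 18.2 to 22.1, and the message does not separate the genotype labels.

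A few factors held most of the factor RNA in these platelets. Levels of different genes are given as TPM, which scales each library to the same total and corrects for gene length. The top 6 members averaged over 100 TPM across the 8 libraries, 10 lay between 10 and 100, 27 between 1 and 10, 19 at 1 or less but above 0, and 5 had no count in any library. Eif1 alone made up 71.7% to 79.0% of the summed member TPM, and the 6 most abundant members together made up 93.5% to 95.5%. The 67 members took 0.627% to 0.810% of all counts. Without Eif1 they took 0.318% (WT replicate 3) to 0.399% (WT replicate 4), so Eif1 held less of the members' counts than of their TPM. The spread of levels over the members was far wider than that between libraries, also within complexes such as eIF3. It was not so in every complex, since Eif5a2 exceeded Eif5a by 1.01 to 1.44 times and Eif2b2 alone ran from 0.53 to 2.27 TPM over libraries. In bulk RNA, fewer cells of a type and less RNA per cell cannot be told apart.

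**Figure D1:**
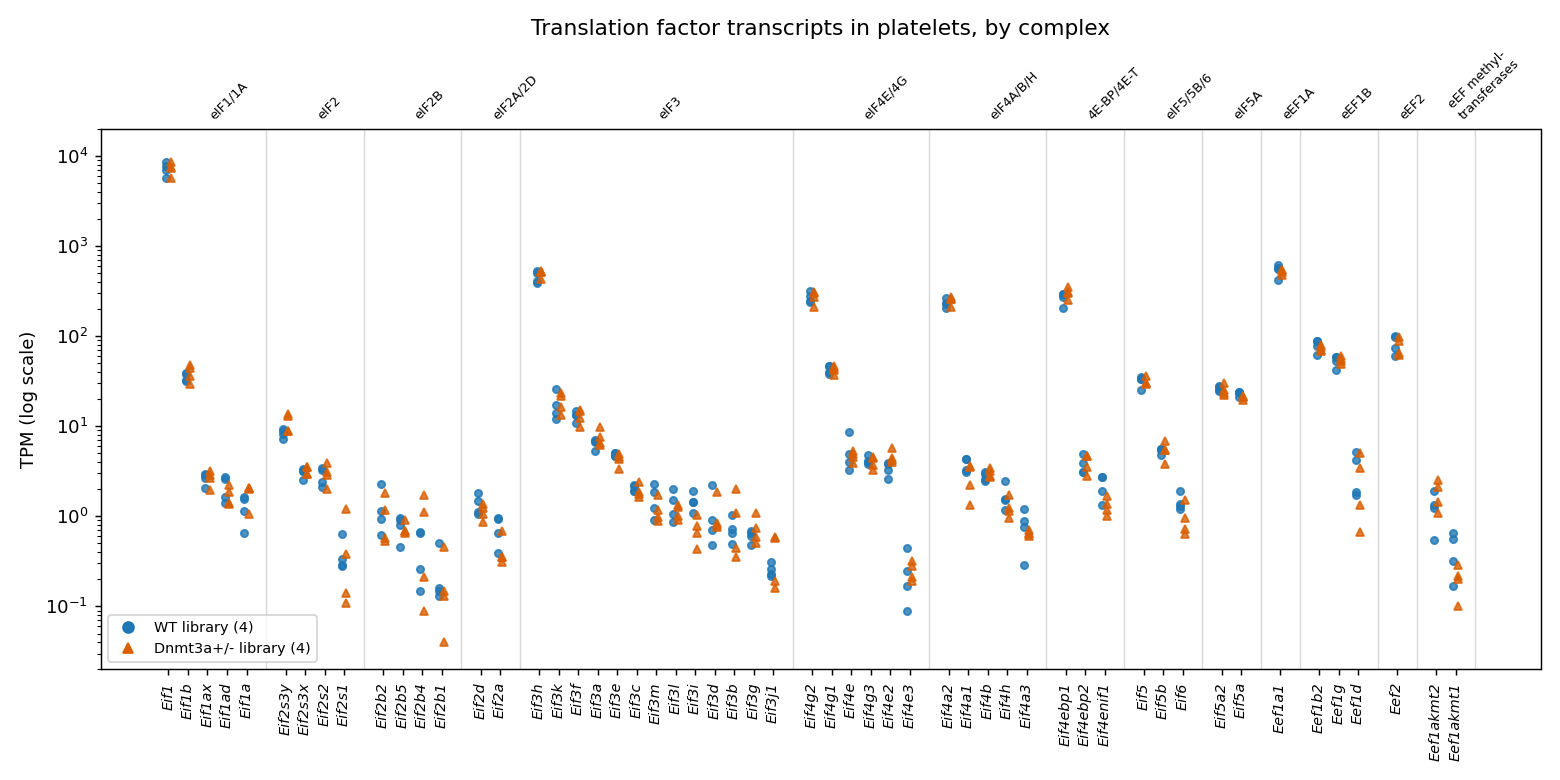
Level of 54 members with TPM above 0 in all 8 libraries (y axis, TPM on a log scale), grouped by complex and ordered by mean level, with a circle for each WT library and a triangle for each Dnmt3a+/- library. Eif1 sits between 5698 and 8641 TPM, Eef1a1, Eif3h, Eif4ebp1, Eif4g2 and Eif4a2 between 208 and 616, and most other members below 10; 13 members with a 0 in some library are not drawn.

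Among the scanning factors, Eif1 dominated. eIF1 sits at the decoding site of the small subunit and guards the choice of start codon. Eif1 (chr11:100319885-100322096 of GRCm38, plus strand) measured 5775, 7839, 7034 and 8641 TPM in WT replicates 1 to 4 and 5698, 7651, 7449 and 8603 TPM in Dnmt3a+/- replicates 1 to 4. The lowest library of each genotype was replicate 1, and the 2 genotypes overlapped almost completely. By mean TPM Eif1 was the gene of rank 25 among all 55487 genes, with ranks of 22 to 31 in single libraries. Its paralog Eif1b, which encodes a closely related protein, measured 29.3 to 47.5 TPM, so Eif1 was 161 to 225 times higher (median 197) and higher in 8 of 8 libraries.

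eIF1A works beside eIF1 in scanning and is encoded by Eif1ax on the X chromosome and by Eif1a on chromosome 18. Both were rare. Eif1ax measured 2.07, 2.86, 2.65 and 2.94 TPM in WT and 1.98, 2.90, 2.70 and 3.18 TPM in Dnmt3a+/-. Eif1a measured 0.66, 1.66, 1.54 and 1.15 TPM in WT and 1.05, 2.08, 2.07 and 2.00 TPM in Dnmt3a+/-, with 20 to 84 counts per library. Eif1 therefore exceeded Eif1a by 3598 to 8750 times per length within a library. Eif1ad, named for its eIF1A-like domain, averaged 1.91 TPM.

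eIF2 binds initiator transfer RNA and GTP through 3 subunits, alpha (Eif2s1), beta (Eif2s2) and gamma (Eif2s3x and its Y-linked copy Eif2s3y). Their summed level was 13.5 to 20.8 TPM, and the gamma subunit led it. Eif2s3y measured 8.11, 8.81, 9.24 and 7.18 TPM in WT and 8.96, 13.7, 8.83 and 13.1 TPM in Dnmt3a+/-. Eif2s3x measured 3.21, 3.38, 3.17 and 2.55 TPM in WT and 2.94, 3.52, 2.95 and 3.49 TPM in Dnmt3a+/-. In TPM the Y-linked gene was the higher in 8 of 8 libraries, by 2.53 to 3.88 times (median 2.95). That order rests on the length correction of TPM, since mean CPM was 8.82 for Eif2s3y and 9.29 for Eif2s3x. Eif2s1, whose protein is the target of the stress kinases, was the lowest of the 4 at a mean of 0.424 TPM (0.11 to 1.21), and Eif2s2 averaged 2.90 TPM.

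eIF2B, the exchange factor that reloads eIF2 with GTP, was lower still. Its 5 subunit genes summed to 2.13 to 4.57 TPM. Eif2b2 led in mean level at 1.14 TPM but was first in only 5 of 8 libraries, and Eif2b1, Eif2b3 and Eif2b4 did not pass the count filter. Eif2d and Eif2a, whose products can bring initiator transfer RNA to the ribosome without eIF2, averaged 1.25 and 0.578 TPM.

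eIF3 is the large scaffold on the small subunit, and its transcripts were very uneven. Eif3h (chr15:51786558-51865523, minus strand), which encodes a subunit that budding yeast eIF3 lacks, measured 411, 507, 385 and 527 TPM in WT and 435, 521, 532 and 515 TPM in Dnmt3a+/-. It made up 87.1% to 91.7% of the TPM of all 14 eIF3 genes. The other 13 together gave 41.0 to 61.1 TPM. Eif3k, also absent from budding yeast, came next at a mean of 18.0 TPM, and Eif3h exceeded it by up to 38.7 times (median 30.4). Eif3f averaged 13.2 TPM, Eif3a (the largest subunit) 7.04 and Eif3e 4.55. Of the 14, 9 averaged under 2 TPM, among them Eif3b, Eif3g and Eif3i, which belong to the core that yeast shares.

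**Figure D2:**
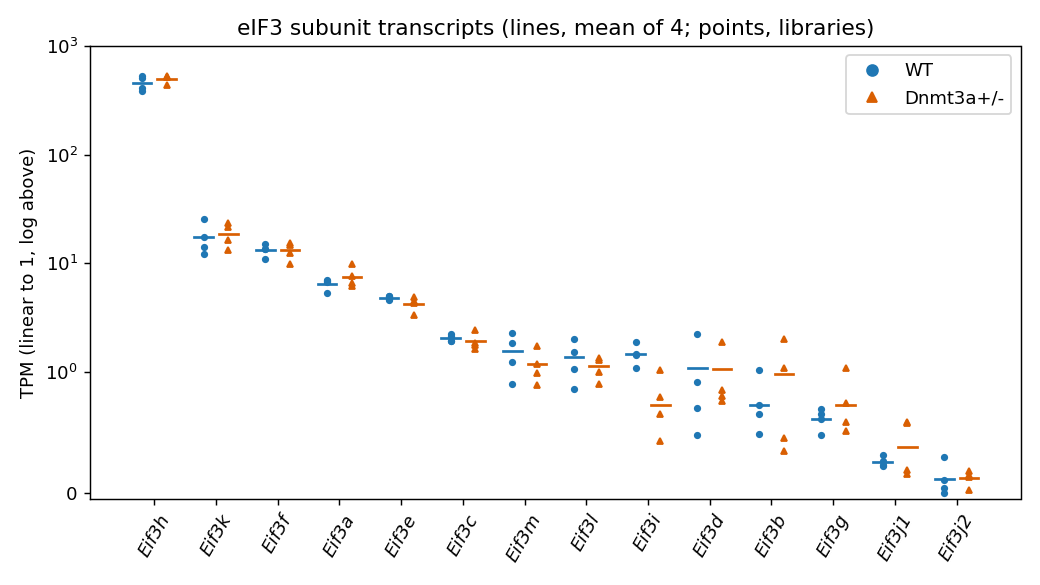
TPM of the 14 eIF3 subunit genes (x axis) in each library, with circles for WT, triangles for Dnmt3a+/- and a line at the mean of 4 libraries; the y axis is linear up to 1 TPM and logarithmic above. Eif3h lies between 385 and 532 TPM in every library, Eif3k between 12.2 and 25.7, and Eif3i is the subunit whose CPM values in the 2 genotypes do not overlap.

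Among the genes for cap-binding proteins, the eIF4G family and eIF4E repressors, the repressor Eif4ebp1 and the eIF4G relative Eif4g2 stood highest. Eif4g2, which encodes a shortened eIF4G relative (DAP5) without the eIF4E-binding part, measured 237, 279, 243 and 318 TPM in WT and 213, 303, 271 and 310 TPM in Dnmt3a+/-. Eif4g1, the canonical scaffold, measured 40.5, 47.3, 38.0 and 47.2 TPM in WT and 37.5, 44.9, 46.3 and 42.3 TPM in Dnmt3a+/-. Eif4g2 was thus 5.69 to 7.33 times higher than Eif4g1, which was itself 8.50 to 13.6 times higher than Eif4g3 (3.31 to 4.77 TPM). Each step held in 8 of 8 libraries.

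Eif4ebp1 (chr8:27260329-27276674, plus strand) encodes 4E-BP1, the mTOR-controlled protein that holds eIF4E away from eIF4G. It measured 293, 295, 208 and 273 TPM in WT and 312, 300, 357 and 253 TPM in Dnmt3a+/-. Eif4e, the cap-binding protein itself, measured 3.29, 4.97, 3.97 and 8.66 TPM in WT and 3.87, 5.25, 4.56 and 4.96 TPM in Dnmt3a+/-. The repressor's message exceeded that of Eif4e by 31.5 to 89.1 times (median 58.3), and it exceeded Eif4e, Eif4e2 and Eif4e3 summed by 24.1 to 40.6 times. For Eif4e2, another cap-binding protein linked to repression, Eif4e was at 0.68 to 3.34 times its level (median 1.22) and the higher in 6 of 8 libraries. Eif4e3 had 3 to 16 counts per library, and Eif4e1b, known from oocytes, had none. Among the other repressors Eif4ebp2 averaged 3.85 TPM and the eIF4E shuttle Eif4enif1 1.74, and Eif4ebp3 had 0 to 5 counts.

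The eIF4A helicases, which unwind the start of the message, were nearly all Eif4a2. Eif4a2 measured 236, 226, 208 and 268 TPM in WT and 269, 259, 213 and 258 TPM in Dnmt3a+/-. Eif4a1, which encodes an almost identical protein, measured 3.12, 4.29, 4.28 and 3.26 TPM in WT and 2.23, 3.56, 1.32 and 3.62 TPM in Dnmt3a+/-. Eif4a2 was 48.6 to 161 times higher (median 74.3) in 8 of 8 libraries. Because only Eif1 and Eif1b lay further apart among the paralog pairs with counts in every library, the DNA just upstream of both genes is shown, with that of Eif1 as the most abundant member. The stretches are the part of each RefSeq promoter window (GRCm38.p6) that precedes every annotated exon of the gene, 5′ to 3′ on the gene's own strand. Capitals mark a GC box (GGGCGG) or an ETS core (CCGGAA) on either strand.
Eif4a2, chr16:23107218-23107443, plus strand: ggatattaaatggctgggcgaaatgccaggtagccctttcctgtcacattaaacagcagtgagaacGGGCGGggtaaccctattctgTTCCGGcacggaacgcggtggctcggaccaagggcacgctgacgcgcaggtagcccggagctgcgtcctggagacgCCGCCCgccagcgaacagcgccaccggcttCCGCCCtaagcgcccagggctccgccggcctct
Eif4a1, chr11:69672424-69672673, minus strand: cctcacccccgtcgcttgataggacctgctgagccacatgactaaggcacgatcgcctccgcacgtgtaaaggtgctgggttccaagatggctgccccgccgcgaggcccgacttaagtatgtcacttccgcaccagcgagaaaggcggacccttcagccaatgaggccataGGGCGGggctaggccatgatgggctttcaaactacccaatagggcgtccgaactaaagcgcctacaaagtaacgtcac
Eif1, chr11:100319699-100319884, plus strand: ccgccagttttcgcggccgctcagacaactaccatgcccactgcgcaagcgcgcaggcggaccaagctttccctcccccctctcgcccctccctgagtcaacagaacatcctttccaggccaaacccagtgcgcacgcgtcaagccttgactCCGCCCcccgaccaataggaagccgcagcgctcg
The Eif4a2 stretch held 3 GC boxes and 1 ETS core, and the stretches of Eif4a1 and Eif1 held 1 GC box each and no ETS core. None held TATAAA, the core of a TATA box, or AGATAA, which Gata1 and its relatives bind. Of the 67 members, 50 matched the RefSeq promoter windows by symbol, with 62 windows of 250 bases before to 50 after a start. Only the 250 bases before the start were searched in each window. GGGCGG was found in 42 of those 62 windows, and in 10756 of all 32851 windows (32.7%). CCGGAA was found in 18 and in 3952 of all, TATAAA in 5 and in 4063 of all (12.4%), and AGATAA in 2 and in 3281 of all. Each motif was searched on both strands, and a GC box and an ETS core can share letters at their ends. These matches describe letters only.

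The last steps of initiation rely on eIF5, which triggers GTP hydrolysis by eIF2, and on eIF5B, which joins the large subunit. Eif5 averaged 31.6 TPM (25.1 to 36.1) and Eif5b 5.39. Eif6, which keeps free large subunits apart, averaged 1.20 TPM.

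eIF5A carries the modified lysine hypusine and eases peptide bond formation at difficult sequences. Eif5a2, which many adult tissues express little, was at the level of the common form Eif5a. Eif5a2 measured 25.5, 27.2, 24.8 and 27.8 TPM in WT and 23.5, 25.3, 22.03 and 30.1 TPM in Dnmt3a+/-. Eif5a measured 24.2, 23.4, 21.0 and 24.3 TPM in WT and 19.8, 21.3, 21.9 and 20.9 TPM in Dnmt3a+/-. Eif5a2 was the higher of the pair in 8 of 8 libraries, by 1.01 to 1.44 times.

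Among elongation factors Eef1a1 came first. It measured 577, 558, 416 and 616 TPM in WT and 544, 475, 542 and 516 TPM in Dnmt3a+/-. Eef1a2, the form of muscle and neurons, had no count in 6 libraries and 2 and 6 counts in Dnmt3a+/- replicates 2 and 4. Of the exchange factor eEF1B, Eef1b2 (mean 76.3 TPM) exceeded Eef1g (53.8) in 8 of 8 libraries, while Eef1d, a second exchange subunit, averaged 2.94 TPM and varied from 0.67 to 5.13. Eef2 averaged 81.0 TPM (60.1 to 100.2), and Eef1a1 exceeded it by 5.47 to 8.33 times. The 6 genes for methyltransferases that modify eEF1A or eEF2 were led by Eef1akmt2 at 1.53 TPM, and Eef1akmt2 was the only one of them to pass the count filter.

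In the order of mean levels most neighbours overlapped in range. Of the 42 neighbouring pairs among members over 1 TPM, only 4 had ranges over the 8 libraries that did not overlap. Eif1 stood clear of Eef1a1, Eif3h of Eif4ebp1, Eif4a2 of Eef2, and Eef1b2 of Eef1g. Eef1a1 and Eif3h overlapped, with Eef1a1 higher in 7 of 8 libraries, and Eif4ebp1 exceeded Eif4g2 in 4 of 8. In 6 other overlapping pairs the order was the same in 8 of 8 libraries: Eef1g over Eif4g1, Eif5 over Eif5a2, Eif5a2 over Eif5a, Eif3k over Eif3f, Eif2s3y over Eif3a, and Eif1ax over Eif3c.

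The 2 genotypes were then compared gene by gene. Fitted differences between WT and Dnmt3a+/- platelets were small for the members over 10 TPM and ran wider for the other tested members. No tested member changed past the threshold. Of the 67 members, 49 passed the filter on low counts and were tested within a fit of 7362 genes. The other 18 did not pass: 13 had a highest count of 16 in any library, and Eef1akmt3, Eif2c5, Eif4a3l1, Eif4a3l2 and Eif4e1b had no count. At an edgeR quasi-likelihood adjusted p under 0.05, 0 of the 49 members were called, beside 0% of all 7362 genes, and DESeq2 and limma also called 0 members. At an unadjusted p under 0.05 there were 2 members, both lower in Dnmt3a+/- (4.08%), where 4.92% of all genes tested met that limit, 3.19% of them lower and 1.73% higher. Both members, Eif3i and Eif2a, reached the level of the filter in more WT than Dnmt3a+/- libraries. Lower fitted values were found for 30 members and higher for 19 (61.2% lower, against 51.0% of all genes), with a median log2 fold change of -0.03 for the members and -0.005 for all genes.

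For the 16 members over 10 TPM the log2 fold change ran from -0.18 to 0.13, with 8 higher and 8 lower, and their 95% intervals stayed within -0.52 and 0.64. For Eif1 it was 0.06 (SE 0.14, interval -0.24 to 0.36), for Eef1a1 -0.08 (SE 0.11), for Eif3h 0.10 (SE 0.10, interval -0.12 to 0.31), for Eif4ebp1 0.13 (SE 0.12), for Eif4g2 -0.02 (SE 0.12) and for Eif4a2 0.03 (SE 0.11). The other 33 tested members ranged from -1.07 to 0.54, with interval bounds of -1.88 to 1.52. The labels call the animals littermates but name no litter, so the p-values rest on the spread between these 8 libraries.

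**Figure D3:**
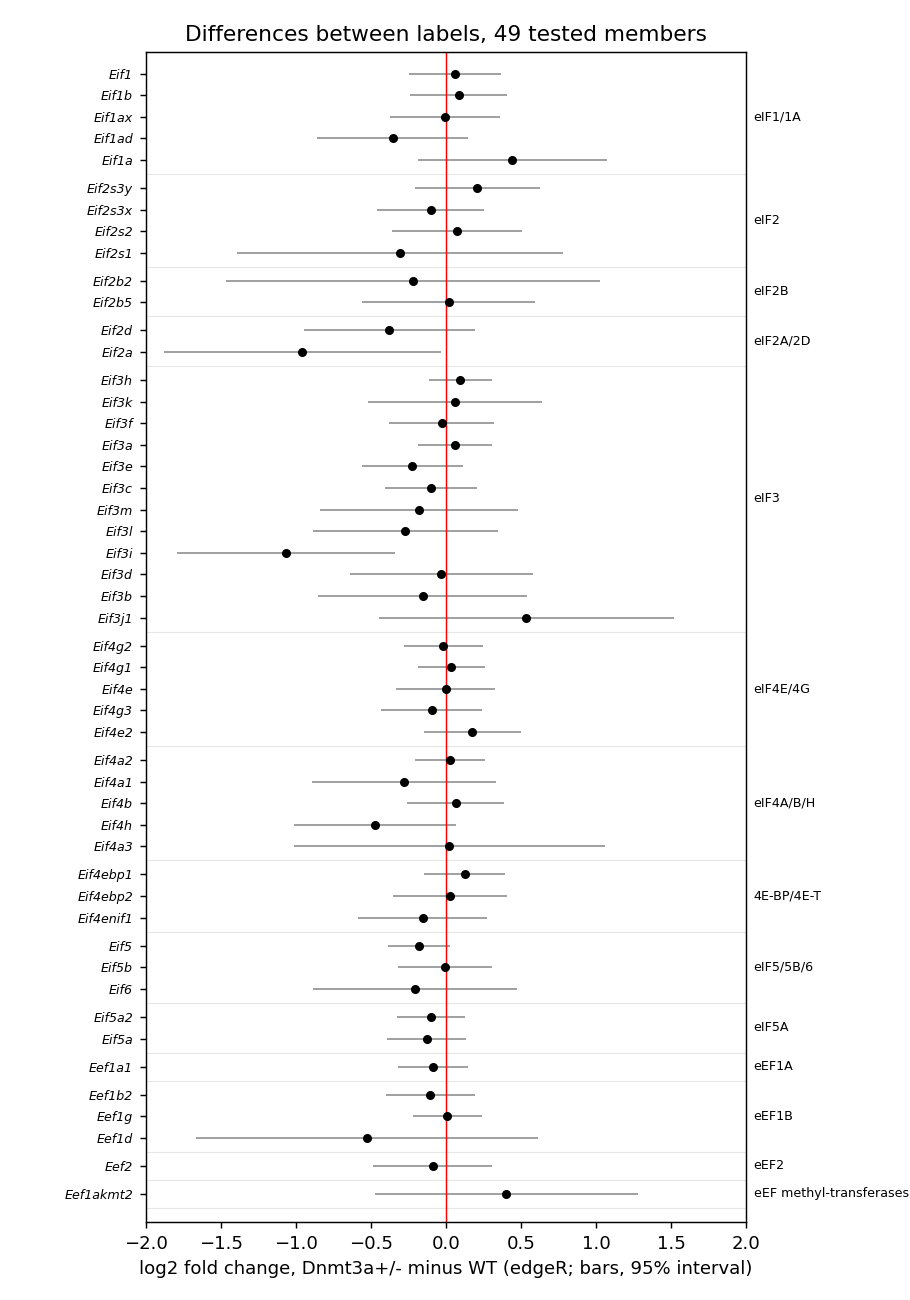
Log2 fold change of the 49 tested members (x axis, Dnmt3a+/- minus WT, edgeR) with 95% intervals, by complex. Intervals of Eif3i (-1.79 to -0.34) and Eif2a (-1.88 to -0.04) exclude 0 before adjustment, and those of the 16 members over 10 TPM all span 0.

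Each complex with 4 or more tested genes held members on both sides of 0. Of the 5 scanning factors 3 were higher and 2 lower in Dnmt3a+/- (median log2 fold change 0.06), of the 4 eIF2 genes 2 and 2, and of the 12 tested eIF3 genes 4 and 8 (median -0.06). Of the 5 tested cap-binding and scaffold genes 2 were higher and 3 lower, and of the 5 genes for eIF4A helicases and their cofactors eIF4B and eIF4H 3 and 2. All 3 of Eif5, Eif5b and Eif6, both eIF5A genes, and Eif2a with Eif2d had lower fitted values, and none of these passed the adjusted threshold.

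Eif3i, which encodes a beta-propeller subunit of that eIF3 core, had the smallest p of the members. Eif3i (chr4:129591960-129600648, minus strand) had 27, 22, 17 and 19 counts in WT and 6, 9, 10 and 20 in Dnmt3a+/-, or 1.72, 1.19, 1.07 and 1.24 CPM against 0.396, 0.557, 0.607 and 0.868 CPM. Every WT library lay above every Dnmt3a+/- library in CPM. The log2 fold change was -1.07 (SE 0.33, n = 4 and 4, edgeR unadjusted p = 0.00791, adjusted p = 0.647), so it did not pass. It stayed under an unadjusted p of 0.05 in each of the 15 alternative fits in which it was tested, with adjusted p between 0.525 and 0.999. Eif3i passed the filter through WT, where 4 libraries reached 0.613 CPM against 1 Dnmt3a+/- library. WT replicate 1, with the highest Eif3i, had the lowest hepatocyte marker share of the WT libraries (0.00124%) and the highest red cell share (2.03%), and the part of either in the Eif3i values was not tested. Without that library the log2 fold change was -0.91.

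Eif2a (chr3:58525821-58557501, plus strand), which encodes a protein separate from the eIF2 alpha subunit, had 22, 15, 25 and 7 counts in WT and 8, 8, 7 and 16 in Dnmt3a+/-. In CPM WT replicates 1 and 3 stood highest at 1.40 and 1.57, WT replicate 2 measured 0.812, and WT replicate 4 at 0.456 fell among the Dnmt3a+/- libraries (0.425 to 0.694). The log2 fold change was -0.96 (SE 0.42, n = 4 and 4, edgeR unadjusted p = 0.0432, adjusted p = 0.986). Its unadjusted p was under 0.05 in 5 of the 15 alternative fits in which it was tested. Eif2a passed the filter mainly through WT, where 3 libraries reached 0.613 CPM against 1 Dnmt3a+/- library. WT replicate 4, the lowest WT library, had a hepatocyte marker share of 0.0998%, and WT replicate 3, the highest, one of 0.114%; the part of such RNA was not tested. Eif2a overlaps 72 exon bases of Serp1 on the other strand, 1.2% of its own.

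Eif5 was the other member whose CPM did not overlap between genotypes. It measured 77.9, 69.1, 67.1 and 72.2 CPM in WT and 61.5, 65.5, 59.8 and 66.5 CPM in Dnmt3a+/-, a log2 fold change of -0.18 (SE 0.09, edgeR unadjusted p = 0.0826, adjusted p = 0.998). In TPM the genotypes did overlap, at 25.13 to 35 in WT and 29.1 to 36.1 in Dnmt3a+/-, and limma on log2(TPM + 0.5) gave a log2 fold change of -0.00283. With the strict filter on low counts its log2 fold change was -0.20 and its unadjusted edgeR p under 0.05, with an adjusted p of 0.993. The 2 members without overlap are 4.08% of those tested, against 2.54% of all genes.

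**Figure D4:**
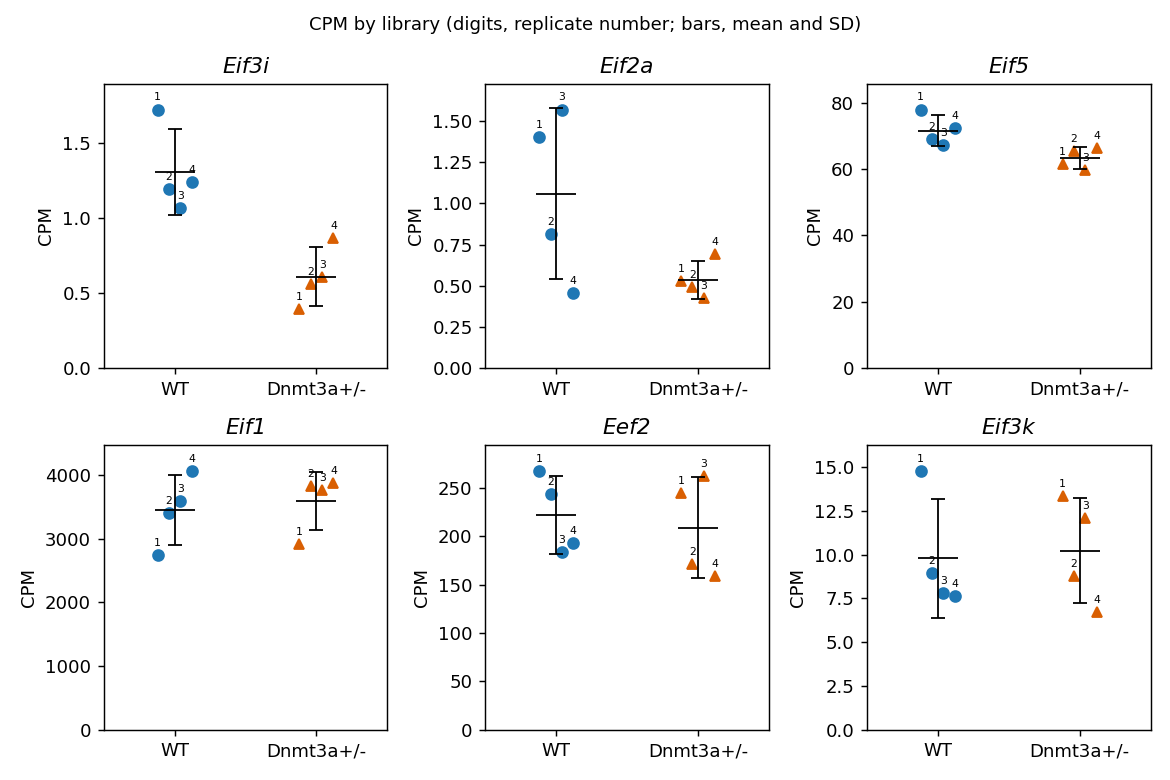
CPM of 6 members in each library (y axes start at 0; digits give the replicate number; the wide bar is the mean and the whiskers the SD of 4). Eif3i and Eif5 show no overlap between genotypes, Eif2a overlaps through WT replicate 4, and Eif1, Eef2 and Eif3k overlap between genotypes.

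Eif3j1 differed more between libraries of the same genotype than between genotypes. It encodes a loosely bound eIF3 subunit and had 17, 20, 27 and 15 counts in WT and 13, 43, 12 and 62 in Dnmt3a+/-, so Dnmt3a+/- replicates 2 and 4 (2.66 and 2.69 CPM) stood apart from replicates 1 and 3 (0.857 and 0.728). Its log2 fold change was 0.54 (SE 0.44, edgeR adjusted p = 0.998). The same 2 libraries had the highest summed leukocyte marker shares, 0.000957% and 0.000731% against 0.000210% to 0.000660% in the other 6, and the part of such cells was not tested. Most of that sum came from Adgre1 (63 and 69 counts), Csf1r (58 and 61) and Ptprc (27 and 27). The granulocyte markers S100a8 and S100a9 did not follow, with 1 and 1 and with 1 and 0 counts in these 2 libraries, against 9 and 16 in WT replicate 1. Cd3e was at 0 in all libraries and Ly6g had 1 count in 1 library. Eif3j1 also shares 19.0% of its exon bases with Spg11 on the other strand. Its paralog Eif3j2 is a copy with at least 95% identity over 200 bases, and had a mean of 3.6 counts against 26.1 for Eif3j1.

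Paralog pairs were compared by the share of one gene in their summed TPM. Of 9 pairs, 6 had counts in all libraries and a mean of at least 10 counts for the lesser gene. The exact two-sided permutation test over 70 arrangements can give no p under 0.0286. The Eif2s3y share of the eIF2 gamma pair was 71.6%, 72.3%, 74.5% and 73.8% in WT and 75.3%, 79.5%, 75.0% and 79.0% in Dnmt3a+/-. All 4 Dnmt3a+/- libraries lay above all 4 WT libraries, with means of 73.0% ± 1.31 and 77.2% ± 2.39 (SD, n = 4 each), a difference of 4.14 percentage points (exact permutation p = 0.0286, adjusted over 6 pairs 0.171). With 70 arrangements, a single pair at the smallest possible p cannot adjust below 0.171 among 6 pairs, so the adjusted value could not have passed here. Shares of counts in place of TPM gave 5.19 points (adjusted exact p = 0.343), but the genotypes then overlapped. Dnmt3a+/- replicate 3, with 127 Eif2s3y and 153 Eif2s3x counts, had a smaller Eif2s3y share than WT replicate 1, with 124 and 145. The high values of Dnmt3a+/- replicates 2 and 4 fall in the libraries with the highest leukocyte marker shares, whereas WT replicate 2, with the highest such share in WT (0.000660%), had a low Eif2s3y share; the part of such cells was not tested.

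The other 5 pairs overlapped between genotypes. Eif1ax made up 68.6% ± 6.32 of the eIF1A pair in WT and 60.4% ± 3.85 in Dnmt3a+/- (SD, n = 4 each; exact permutation p = 0.114, adjusted 0.343). Eif4a2 made up 98.4% ± 0.403 of its pair with Eif4a1 in WT and 99.0% ± 0.384 in Dnmt3a+/- (SD, n = 4 each; exact permutation p = 0.171, adjusted 0.343). For Eif1b, Eif5a2 and Eif4g3 the exact permutation p was 0.371, 0.571 and 0.714. Eif3j2, Eif4e3 and Eef1a2 had too few counts for a share to be tested.

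**Figure D5:**
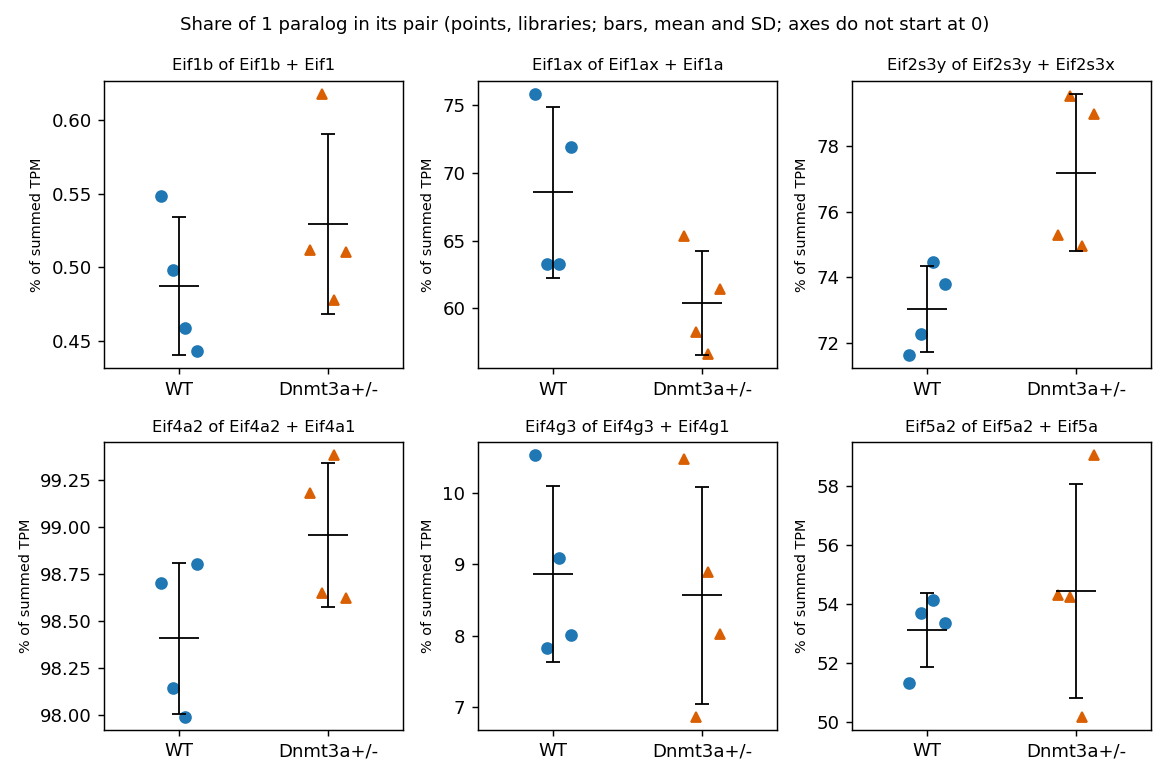
Share of one paralog in the summed TPM of its pair (y axes in percent, not starting at 0) for the 6 pairs tested, by library, with the mean and SD of 4. Only in the Eif2s3y panel do the 2 genotypes not overlap, at 71.6% to 74.5% in WT and 75.0% to 79.5% in Dnmt3a+/-.

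Genes that control or complete the work of these factors also held none past the adjusted edgeR threshold, but more of them were higher than lower, unlike the members. Of 37 such genes, 28 were tested, of which 16 were higher and 12 lower in Dnmt3a+/- with a median log2 fold change of 0.04, and edgeR called 0 at an adjusted p under 0.05 (0% of all genes). Of the 28, 2 had an unadjusted edgeR p under 0.05, a larger share than the 4.92% of all genes tested. Both were lower in Dnmt3a+/-, against 3.19% of all genes tested that met the limit with lower values. They were Eef2k, the kinase that stops eEF2 (log2 fold change -0.70, SE 0.31, edgeR adjusted p = 0.986), and Gspt1, the release factor eRF3a (-0.58, SE 0.26, adjusted p = 0.987). The abundant ones were Paip2, which restrains poly(A)-binding protein, at 1215 TPM, Pabpc1, the main cytoplasmic poly(A)-binding protein, at 508, and Atf4, whose translation rises when eIF2 is phosphorylated, at 318. Their log2 fold changes were 0.10, 0.07 and 0.0046. Of the eIF2 kinases Eif2ak1, the heme-regulated kinase, led at 41.6 TPM (-0.04), and Eif2ak2, Eif2ak3 and Eif2ak4 averaged 0.208, 0.523 and 0.0563 TPM.

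Some members share sequence with other genes. With at least 95% identity over 200 bases, 22 members had a near-identical copy elsewhere in the annotation, mostly pseudogenes. For the 16 members over 10 TPM the copies held at most 0.4% of the gene's own count. Eif4ebp3 shares 67.3% of its exon bases with AC115631.1 on the same strand, which had a mean of 5.8 counts against 1.6 for Eif4ebp3. Eif3d shares 43.3% of its exon bases with the antisense gene Gm17638, which had a mean of 50.2 counts against 20.4 for Eif3d. No source used here states the strand setting of the counting, so their reads cannot be told apart with certainty.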

How the data were processed

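Platelet RNA of 8 mice was measured by poly(A) RNA-seq from stranded libraries. The authors deposited a table of estimated counts per gene, written as whole numbers, and a table of TPM. The tools named in the submitters' processing notes are RSEM, STAR, cutadapt and DESeq2, on build mm10. Their versions, the annotation and the strand setting are not given in the sources used here. Samples were grouped by the genotype label, and 86 rows without a symbol were kept in the totals. Library totals of 15185218 to 22160394 counts limit members of few counts.

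All genes were fitted with edgeR 4.0.16 (R 4.3.3) on the deposited estimated counts, already whole numbers: TMM factors, filterByExpr with a minimum count of 10, glmQLFTest by genotype, Benjamini-Hochberg over 7362 genes, threshold 0.05. CPM are the counts over TMM-scaled totals. The authors' TPM served for levels across genes and paralog shares, which were compared by exact permutation. All 8 libraries were kept as separate samples, since every pair differed by more than sampling noise (chi-square over degrees of freedom at least 10.3). Library values are given for the 6 most abundant members, those with an unadjusted p under 0.05 or without overlap between genotypes, and the paralogs. Genes given by library beyond that rule (such as the members Eef2 and Eif3k and the platelet genes Gp9 and Gp1bb) were chosen after their values were seen. Alternatives were upper-quartile and RLE factors, no filter, a filter of 5 CPM in 4 libraries, DESeq2 1.42.0, limma 3.58.1 on log2(TPM + 0.5), a robust fit, a replicate block and leaving out each library. Gene positions are from GENCODE M21 (GRCm38), and copies were found with blastn 2.17.0. The members, gene lists and tests were chosen with earlier results of these data known.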

Additional observations from a re-analysis of the deposited data

Results flagged for a closer look

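In each genotype's 4 libraries, the highest or lowest value of every named gene and paralog share was compared with its nearest neighbour, and it was listed when that gap, as a share of the whole range, exceeded Dixon's 95% critical value for 4 samples. Of 54 groups checked 3 were listed, and chance alone lists about 1 in 20. Eif1 in Dnmt3a+/- replicate 1 measured 2924 CPM, below 3763 to 3883 CPM in the other 3. WT replicate 1, at 2748 CPM, was also the lowest of its genotype. Eif1a in the same Dnmt3a+/- replicate 1 measured 2.11 CPM against 3.59 to 3.65 CPM in the other 3. Eif3j1 in WT replicate 3 measured 1.69 CPM against 0.978 to 1.08 CPM in the other 3, from 27 counts against 15 to 20.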

How the results depend on the processing

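Under the 16 alternatives the count of members called stayed at 0. Over all genes, edgeR called 250 (246 lower) without the filter, DESeq2 called 15, the robust fit 1, and leaving out a library gave 0 to 135, the 135 without WT replicate 1 and 1 without Dnmt3a+/- replicate 2; the causes were not tested. Members under an unadjusted p of 0.05 numbered 1 with upper-quartile factors, with the strict filter and with DESeq2, and 1 to 3 when a library was left out. The genes behind these counts also differed: the strict filter gave Eif5, no filter gave Eif3i with Eef1a2 (the latter higher in Dnmt3a+/-), and limma gave Eif3i with Eif4enif1. The members' median log2 fold change ran from -0.0774 to -0.0319 over libraries left out, with -0.0774 without Dnmt3a+/- replicate 1. Same-numbered libraries did not deviate together (correlations -0.0371, 0.0814, 0.158 and -0.168), so the replicate numbers were not taken as pairs; with the replicate block 0 genes and 0 members were called, 2 members had an unadjusted p under 0.05 (Eif1a and Eif3i), and the median was -0.0499. Of 331 values for 21 named members 307 kept their direction, and 24, of 8 genes within 0.102 of 0 in the fit reported, did not. With upper-quartile factors Eif4g2 became 0.00801, Eif1ax 0.0173 and Eif4e 0.0192; without the filter Eif1ax became 0.00535 and Eif4e 0.0131; with DESeq2 Eif4e became 0.00155; with limma on TPM Eif4g2 became 0.0209, Eif1ax 0.0214, Eif2s3x 0.0601 and Eif4g1 -0.0144. Over libraries left out Eif1 ranged from -0.0357 to 0.154, Eif4a2 from -0.026 to 0.0983, Eif1ax from -0.101 to 0.104, Eif4g1 from -0.0173 to 0.0968, Eif4g2 from -0.0743 to 0.0737, Eif4e from -0.0547 to 0.0808 and Eif1b from -0.0376 to 0.192. The Eif4g3 share difference ranged from -0.941 to 0.265 percentage points and that of Eif5a2 from -0.22 to 2.74. The strict filter left Eif3i, Eif2a, Eif1a, Eif3j1 and Eif4a1 untested. With 6 to 27 counts a library, Eif3i and Eif2a are limited by counting.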

Other observations

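Eef2 and Eif3k varied between libraries of the same genotype, and their values are set beside those of 2 platelet receptor genes picked after they were seen. Eef2 measured 268, 244, 184 and 193 CPM in WT replicates 1 to 4 and 245, 171, 262 and 159 CPM in Dnmt3a+/- replicates 1 to 4. Eif3k measured 14.8, 8.93, 7.78 and 7.63 CPM in WT and 13.3, 8.79, 12.1 and 6.73 CPM in Dnmt3a+/-. Gp9, a subunit of the von Willebrand factor receptor, measured 2153, 1418, 1141 and 831 CPM in WT and 1889, 953, 1576 and 757 CPM in Dnmt3a+/-. Gp1bb, another subunit of that receptor, measured 569, 338, 336 and 300 CPM in WT and 487, 248, 357 and 214 CPM in Dnmt3a+/-. In all 4 genes WT replicate 1 was the highest WT library, and Dnmt3a+/- replicates 1 and 3 were higher than replicates 2 and 4. Of the other platelet markers Itga2b and Tubb1 had this order, while Ppbp, Pf4, Gp1ba and Gp6 did not. Ppbp was lowest of the WT libraries in WT replicate 1 (16120 CPM), and Pf4 was highest in WT replicate 2 (5867 CPM). Eif1, the most abundant factor, was lowest in WT replicate 1 (2748 CPM) and Dnmt3a+/- replicate 1 (2924 CPM).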
